A study of Zea mays with 6 samples.

Results

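The genes described here code for cysteine proteases, legumain-type vacuolar processing enzymes, cystatins and an aspartic proteinase of maize, together with see1 and see2, which carry the name "senescence-enhanced". Probe sets were taken as members where their single gene symbol, an NCBI synonym of it, or a gene title used by the study contained one of these names. This rule, which uses names and no signals, found 19 of 17621 probe sets. They comprise 7 of papain-type cysteine proteases, 2 of the legumain type, 8 of cystatins, 1 of an aspartic proteinase and 1 of an OTU-like cysteine protease, a family that removes ubiquitin and is caught by the rule through its name alone. Of the 19, 12 matched by symbol or synonym and 7 by title only, and the titles come from a gene selection that the study made on these same arrays.

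Leaves were sampled from field-grown plants of DKC6575, a genetically modified (GM) variety that carries the MON810 event with a Bt insecticidal protein, and of Tietar, its near-isogenic variety without the event. Each variety gave 1 array for T2 drought, with irrigation at 0% of field capacity, 1 for T2 control, with 100%, and 1 for T1 control, also with 100%, where T1 is a vegetative stage and T2 is silking. No array was repeated, so a difference between 2 arrays contains the differences between plants, plots and hybridizations as well. The study had biological replicates in the field, but how they entered the arrays is not given in the sources used here.

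Papain-type cysteine proteases are made as inactive precursors and do much of their work in the vacuole. Legumains, also called vacuolar processing enzymes, cut behind asparagine residues and activate other vacuolar proteins, and cystatins are small proteins that block the active site of papain-type proteases. In leaves these enzymes are known for the breakdown of protein during senescence, when nitrogen moves from old leaves to the developing ear.

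All values are linear array signals as deposited, on arrays that share the same trimmed mean. A signal belongs to its own probe set and was not set against that of another. Of the 19 probe sets, 14 had a mean log2 signal of at least 6, equal to a signal of 64, and are called brighter here. The 5 dim ones were 2 of cystatin2, cystatin3, the aspartic proteinase and the OTU-like protease. The plot of signals shows every member on every array.

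**Figure D1:**
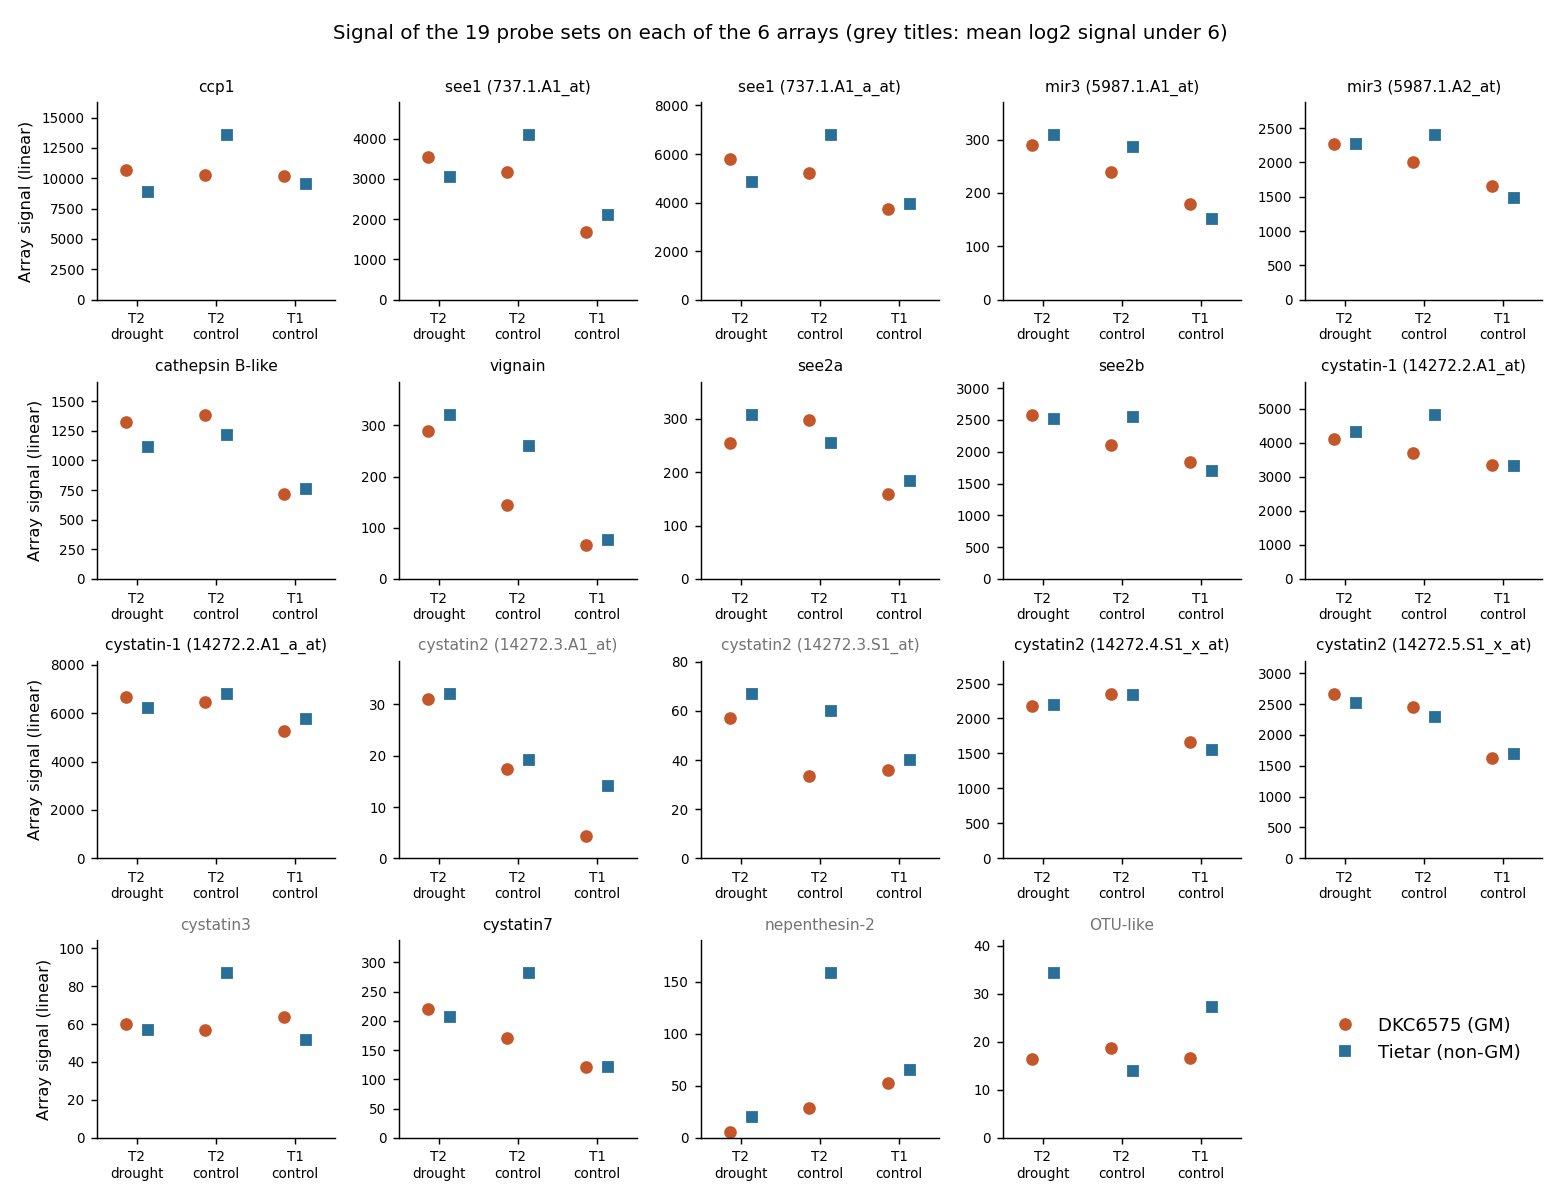
Linear array signal (y axis, each panel from 0) of the 19 probe sets at T2 drought, T2 control and T1 control (x axis), 1 point per array, with DKC6575 as circles left of Tietar as squares. In all 14 brighter probe sets both T2 control points lie above both T1 control points, whereas T2 drought and T2 control points are mostly intermixed.

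The first question was what changed in irrigated leaves between T1 and T2. Of the 19 members, 9 rose and 0 fell in the limma fit over both varieties (adjusted p under 0.05 over all probe sets, 13 of 19 at an unadjusted p under 0.05), against 6.23% of all probe sets that rose and 3.37% that fell. The members' median log2 difference (T2 control minus T1 control) was 0.52, against 0.04 over all probe sets. The 9 that rose were both probe sets of see1, both matched probe sets of mir3, the cathepsin B-like protease, vignain, see2a and 2 probe sets of cystatin2. Both T2 control arrays lay above both T1 arrays in 15 of 19 members and in all 14 brighter ones, against 28.7% of all probe sets and 35.2% of the brighter ones. Several genes have more than 1 probe set, and with only the brightest of each gene 6 of 13 rose and 0 fell. Of the 12 members matched by symbol or synonym 5 rose, and of the 7 matched by title only 4 rose. The calls, differences and separation of the title-only members are no independent evidence, since their titles come from a selection on these arrays. The median and the counts of separated arrays above include these members.

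See1 (LOC542451), a papain-type vacuolar protease also listed as ccp2, lies on chromosome 7 at 127283982 to 127289006 of the B73 assembly Zm-B73-REFERENCE-NAM-5.0, which also gives the other positions below. Its 2 probe sets are told apart here by the ends of their identifiers. At T2 drought the see1 probe set A1_at had 3539 in DKC6575 and 3035 in Tietar, against 3159 and 4085 at T2 control and 1669.5 and 2093 at T1 control. Both T2 control arrays were above both T1 arrays, and so were both drought arrays. T2 control exceeded T1 control by 0.94 on the log2 scale (SE 0.15, limma adjusted p = 0.00901), with 0.92 in DKC6575 and 0.96 in Tietar. Its partner A1_a_at had 5783 and 4854 at T2 drought, 5219 and 6774 at T2 control, and 3717 and 3943 at T1 control, DKC6575 before Tietar in each pair. The same order of stages held in it, with a smaller difference of 0.64 (SE 0.15, adjusted p = 0.0363).

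Vignain is the name of papain-type proteases with a retention signal for the endoplasmic reticulum, found in germinating and dying tissue. The probe set with that title, which has no gene symbol in the array annotation, had 289.6 in DKC6575 and 321 in Tietar at T2 drought, 144 and 259.9 at T2 control, and 66.5 and 76.9 at T1 control. The 3 conditions did not overlap, lowest at T1 and highest under drought. Among the brighter members the same order held only for 1 probe set each of mir3 and cystatin2, with smaller steps. T2 control exceeded T1 control by 1.44 (SE 0.21, adjusted p = 0.00738), 1.12 in DKC6575 and 1.76 in Tietar. Among the brighter members this was the largest difference between the stages.

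The cathepsin B-like protease, of a papain-type branch that in animals also trims proteins from their carboxyl end, had 1326 in DKC6575 and 1114 in Tietar at T2 drought, 1386 and 1217 at T2 control, and 719 and 755 at T1 control. T2 control was higher than T1 control by 0.82 (SE 0.11, adjusted p = 0.00501), the lowest adjusted p among the members in this comparison. Its gene is not named in the array annotation.

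Mir3 (LOC100037824), on chromosome 2 at 5495848 to 5499428, is a papain-type protease of the group around mir1, a maize protease known for its part in resistance to caterpillars. Its probe set A1_at had 289.8 and 308 at T2 drought, 239 and 286 at T2 control, and 179 and 152 at T1 control (DKC6575 before Tietar). Probe set A2_at, which the annotation gives to another mir3 entry without a position, had 2265 in both varieties at T2 drought, 2002 and 2397 at T2 control, and 1651 and 1481 at T1 control. T2 control lay above T1 control on every array of both, by 0.67 (SE 0.16, adjusted p = 0.0427) and 0.49 (SE 0.12, adjusted p = 0.0394). A further mir3 probe set, A2_a_at, carries the symbol but did not meet the rule, and its difference of 0.38 did not pass the test (adjusted p = 0.117).

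Ccp1 (LOC542701), on chromosome 5 at 162039634 to 162042973, was the only papain-type member with no call at T2 control. It had 10687 in DKC6575 and 8849 in Tietar at T2 drought, 10301 and 13553 at T2 control, and 10231 and 9548 at T1 control. The 2 irrigated arrays of DKC6575 differed by 0.01 on the log2 scale and those of Tietar by 0.51, and the common difference of 0.26 (SE 0.16) did not pass the test (adjusted p = 0.401).

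The legumain-type genes see2a (LOC542001), on chromosome 8 at 141381265 to 141388434, and see2b (LOC542609), on chromosome 3 at 231524635 to 231530184, differed in their calls. See2a had 255 and 307 at T2 drought, 297 and 254 at T2 control, and 159 and 183 at T1 control (DKC6575 before Tietar), and T2 control exceeded T1 control by 0.69 (SE 0.17, adjusted p = 0.0406). See2b had 2583 and 2520.4 at T2 drought, 2109 and 2544 at T2 control, and 1844 and 1702 at T1 control. In see2b the stages did not overlap either, but the difference of 0.39 (SE 0.11) did not pass (adjusted p = 0.0804). The difference between the 2 genes was not tested.

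Among the cystatins, which inhibit the papain-type proteases, 2 of 8 probe sets rose at T2 in the test. Both belong to cystatin2 (LOC100101525), on chromosome 8 at 177910747 to 177912194. They are called cystatin2 set 4 and set 5 after their identifiers. Set 4 had 2180.4 in DKC6575 and 2188 in Tietar at T2 drought, 2350.3 and 2338 at T2 control, and 1661 and 1544 at T1 control. Set 5 had 2663 and 2514 at T2 drought, 2457 and 2286 at T2 control, and 1627 and 1687 at T1 control. The irrigated stages lay apart by 0.55 (SE 0.09, adjusted p = 0.0104) and 0.52 (SE 0.09, adjusted p = 0.0144). The ending _x_at marks probes that can also match other transcripts, and the probe sets of cystatin-1 and cystatin2 share a cluster number, so the signals of these genes may not be separate.

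Cystatin-1 (LOC542213), on chromosome 3 at 192789841 to 192795584, had 4099 and 4309 at T2 drought, 3695 and 4830.2 at T2 control, and 3349 and 3312 at T1 control on probe set A1_at (DKC6575 before Tietar). Its other probe set, A1_a_at, had 6654 and 6232, 6450.3 and 6793, and 5256 and 5771 in the same order of conditions. Both were higher at T2 control than at T1 control on each array, with common differences of 0.34 and 0.27 that did not pass the test (adjusted p = 0.125 and 0.178). Cystatin7 (LOC732754), on chromosome 1 at 79809298 to 79810172, had 220.0 and 207 at T2 drought, 170.0 and 281 at T2 control, and 122 and 121 at T1 control. Its difference of 0.85 (SE 0.22) missed the threshold at an adjusted p of 0.0553, with 0.48 in DKC6575 and 1.22 in Tietar.

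The dim members gave no call between the irrigated stages. Cystatin3 (LOC732752), on chromosome 6 at 167124465 to 167125351, lay between 51.6 and 86.8 on the 6 arrays, and the OTU-like protease between 13.9 and 34.2. The other 2 cystatin2 probe sets lay between 4.45 and 32.0 and between 33.6 and 66.9.

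**Figure D2:**
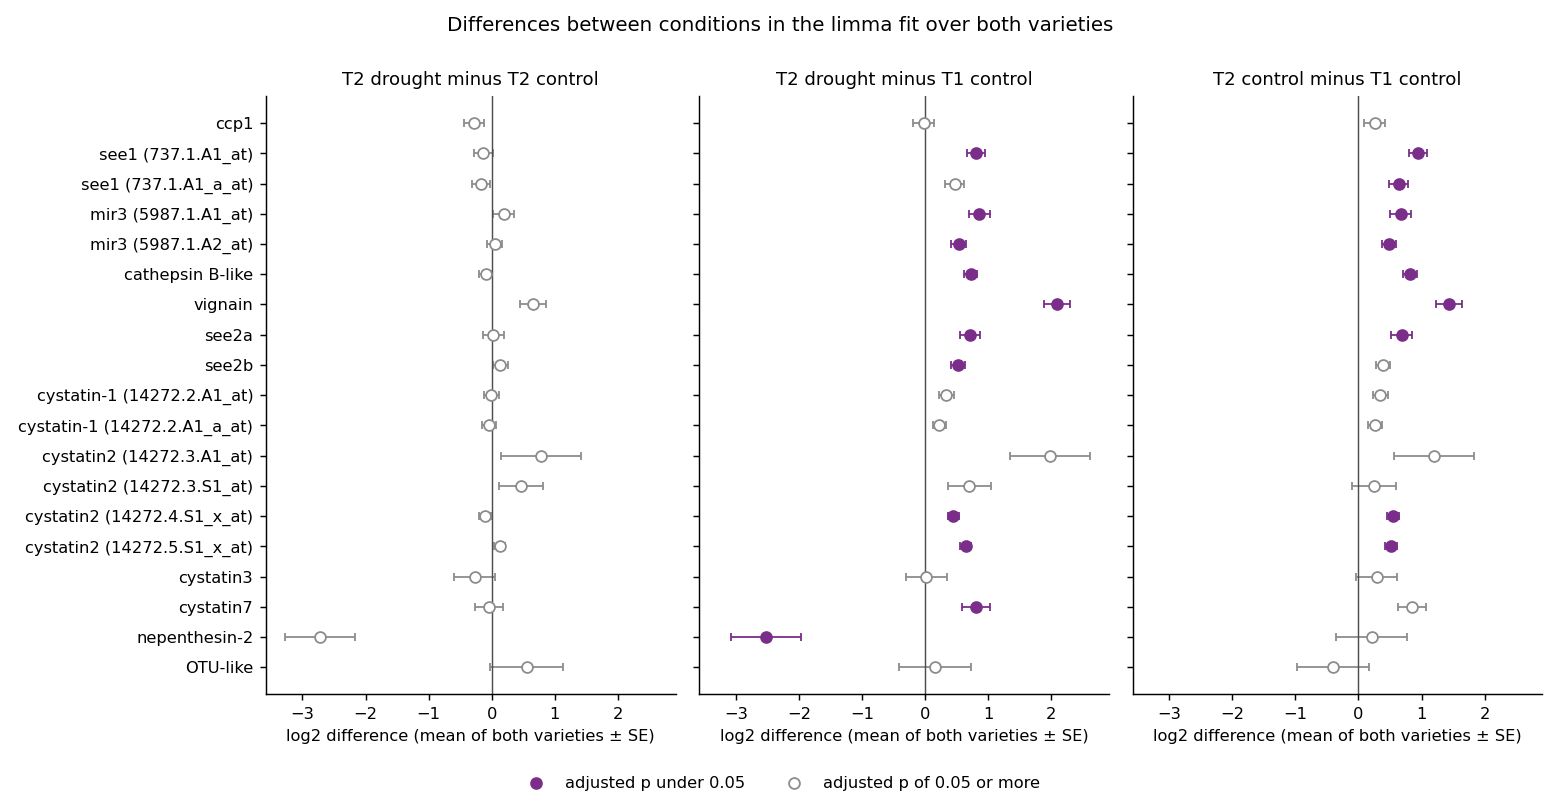
Log2 difference between conditions (x axis, points with SE from the limma fit over 6 arrays) for each member (y axis), with filled points at an adjusted p under 0.05. The filled points lie to the right of 0 except for nepenthesin-2, and the panel of T2 drought minus T2 control holds none.

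These calls rest on both T1 arrays and on the way the error was estimated. The fit lets the error depend on signal. With 1 error prior for all probe sets 0 of the 17621 were called in any comparison, members included, whereas with that prior and the dim probe sets left out 7 members were, among 834 probe sets that rose and 375 that fell. Without the DKC6575 T1 array 0 members were called, among 146 probe sets that rose and 48 that fell. Without the Tietar T1 array 1 member was called, among 240 and 62 probe sets, whereas leaving out a T2 control array gave 12 without DKC6575 and 6 without Tietar. Centring each array on its median instead of its trimmed mean moved the median of all probe sets to -0.09 and left 5 of the 9 calls, and it reversed none of the 9 differences. With that scaling 776 of all probe sets rose and 1126 fell, against 1098 and 593 with the deposited one.

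The second question was how leaves at T2 drought differed from those at T2 control. No member passed the test (0 of 19 by limma, 2 of 19 at an unadjusted p under 0.05), against 0.55% of all probe sets that rose and 0.482% that fell. The members' median difference (T2 drought minus T2 control) was -0.01, against 0.02 over all probe sets. In the 14 brighter members the common difference ranged between -0.28 for ccp1 and 0.66 for vignain.

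Vignain had the largest positive drought difference of the brighter members, 0.66 (SE 0.21, 95% confidence interval 0.16 to 1.15), but the adjusted p was 0.245. Within DKC6575 its signal at T2 drought was above that at T2 control by 1.01, and within Tietar by 0.31. The T2 control arrays differed more, 144 in DKC6575 against 259.9 in Tietar, than the drought arrays, 289.6 against 321. For see1 the interval of the common drought difference ran between -0.48 and 0.21 for probe set A1_at and between -0.51 and 0.18 for A1_a_at, so that a 2-fold change common to both varieties lay outside it. The interval was -0.36 to 0.41 for see2a and -0.13 to 0.40 for see2b. All of these intervals rest on the error prior with the intensity trend and on 1 array per variety and condition.

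The aspartic proteinase titled nepenthesin-2, a relative of the digestive enzyme of pitcher plants, had the largest negative difference. Its signal was 5.13 in DKC6575 and 20.2 in Tietar at T2 drought, against 28.7 and 158 at T2 control and 52.2 and 65.1 at T1 control. Both drought arrays lay below the other 4, and the drought difference of -2.73 (SE 0.56) did not pass the test (adjusted p = 0.0806). Its signals were under 64 on 4 of the 6 arrays, and the array annotation names no gene for it.

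The drought and T2 control arrays overlapped in most members. Both drought arrays were above both T2 control arrays in 4 of 19 members, against 23.6% of all probe sets, and below them in 2 of 19, against 20.0%. The higher ones were vignain, 1 probe set of mir3 and 2 of cystatin2, and the lower ones nepenthesin-2 and cystatin2 set 4. Sets 4 and 5 of cystatin2 thus separated in opposite directions, at differences of -0.10 and 0.13.

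Set against T1, the drought arrays were also higher in most members. In the limma fit 10 of 19 members rose and 1 fell at T2 drought relative to T1 control, against 9.95% and 6.04% of all probe sets, with a median of 0.53 against 0.06. With only the brightest probe set of each gene 7 of 13 rose and 1 fell. Of the 12 matched by symbol or synonym 6 rose and 0 fell. The calls of the title-only members, among them vignain and nepenthesin-2, are no independent evidence here either. The median and counts over all members include them. Vignain led with 2.09 (SE 0.21, limma adjusted p = 0.00146), equal to 4.27-fold. See2b, with 0.53 (SE 0.11, adjusted p = 0.0194), and cystatin7, with 0.81 (SE 0.22, adjusted p = 0.0455), passed here and not in the irrigated comparison, while see1 probe set A1_a_at, with 0.47 (adjusted p = 0.0726), did not. The only fall was that of nepenthesin-2, -2.52 (SE 0.56, adjusted p = 0.0205), with both drought signals under 64. With signals below 64 set to 64 the difference was -0.01, and without the DKC6575 T1 array it was -1.57 (adjusted p = 0.215), within a range of 0.00607 to 1 over the alternatives. Both drought arrays were above both T1 arrays in 15 of 19 members, against 33.6% of all probe sets, and below them in 1, against 24.9%. This comparison shares its T1 arrays with the first one and its drought arrays with the second. Without the DKC6575 T1 array 2 members were called, among 481 probe sets that rose and 168 that fell, and without that of Tietar 3, among 491 and 117. With 1 error prior 0 of all probe sets were called, but 10 members were once the dim probe sets were left out as well. Median centring left 6 calls, at a median of -0.16 over all probe sets, of which 978 then rose and 2085 fell, against 1754 and 1065.

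The varieties were compared over all 3 conditions. No member passed the test between DKC6575 and Tietar (0 of 19 by limma, 1 of 19 at an unadjusted p under 0.05, which was nepenthesin-2), against 0.0114% of all probe sets higher and 0.0397% lower in DKC6575. The largest difference of a brighter member was that of vignain, -0.40 (adjusted p = 0.831).

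At T2 control, however, more members lay lower in DKC6575. Its signal was lower than Tietar in 14 of 19 members at T2 control, against 54.1% of all probe sets, with a median difference (DKC6575 minus Tietar) of -0.27 against -0.04, and among the brighter ones in 10 of 14, against 48.5%. At T2 drought DKC6575 was lower in 10 of 19, against 52.3%, and at T1 control in 11 of 19, against 51.6%, with medians of -0.0001 and -0.07. With 1 array on each side, none of this was tested.

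This difference between the T2 control arrays enters each variety's own drought response. In DKC6575 the drought array was above its T2 control by 0.16 for see1 probe set A1_at, 0.05 for ccp1 and 0.37 for cystatin7, and in Tietar the difference was -0.43, -0.62 and -0.44. Set against the mean of both T2 control arrays, see1 had -0.02 in DKC6575 and -0.24 in Tietar, ccp1 -0.14 and -0.42, and cystatin7 0.01 and -0.08. For vignain the same baseline gave 0.58 in DKC6575 and 0.73 in Tietar, the reverse order of the varieties. This shared baseline was added after seeing the data. It removes the difference between the T2 control arrays by construction, so the change cannot show where the opposite signs come from. 

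Few members differed by 2-fold or more within a variety. Under drought in DKC6575, vignain was 2-fold higher and nepenthesin-2 2-fold lower, 1 of 19 each, against 8.04% of all probe sets higher and 5.94% lower. In Tietar under drought, the OTU-like protease was higher and nepenthesin-2 lower, again 1 of 19 each, against 8.2% and 11.1%. Between T2 control and T1 control in DKC6575, vignain and a dim probe set of cystatin2 were higher, 2 of 19, and 0 were lower, against 8.47% and 9.2%. In Tietar it was vignain, cystatin7 and nepenthesin-2, 3 of 19, with 0 lower, against 11.4% and 8.38%. Most of the shares over all probe sets come from dim ones. Among brighter members 1 of 14 was 2-fold higher under drought in DKC6575, against 0.674% of brighter probe sets, and 0 of 14 in Tietar, against 2.62%. Between T2 control and T1 control it was 1 of 14 in DKC6575, against 2.15%, and 2 of 14 in Tietar, against 2.74%. With 1 array on each side these counts have no test. Vignain, nepenthesin-2 and the OTU-like protease were matched by title only, through a selection on these same arrays.

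**Figure D3:**
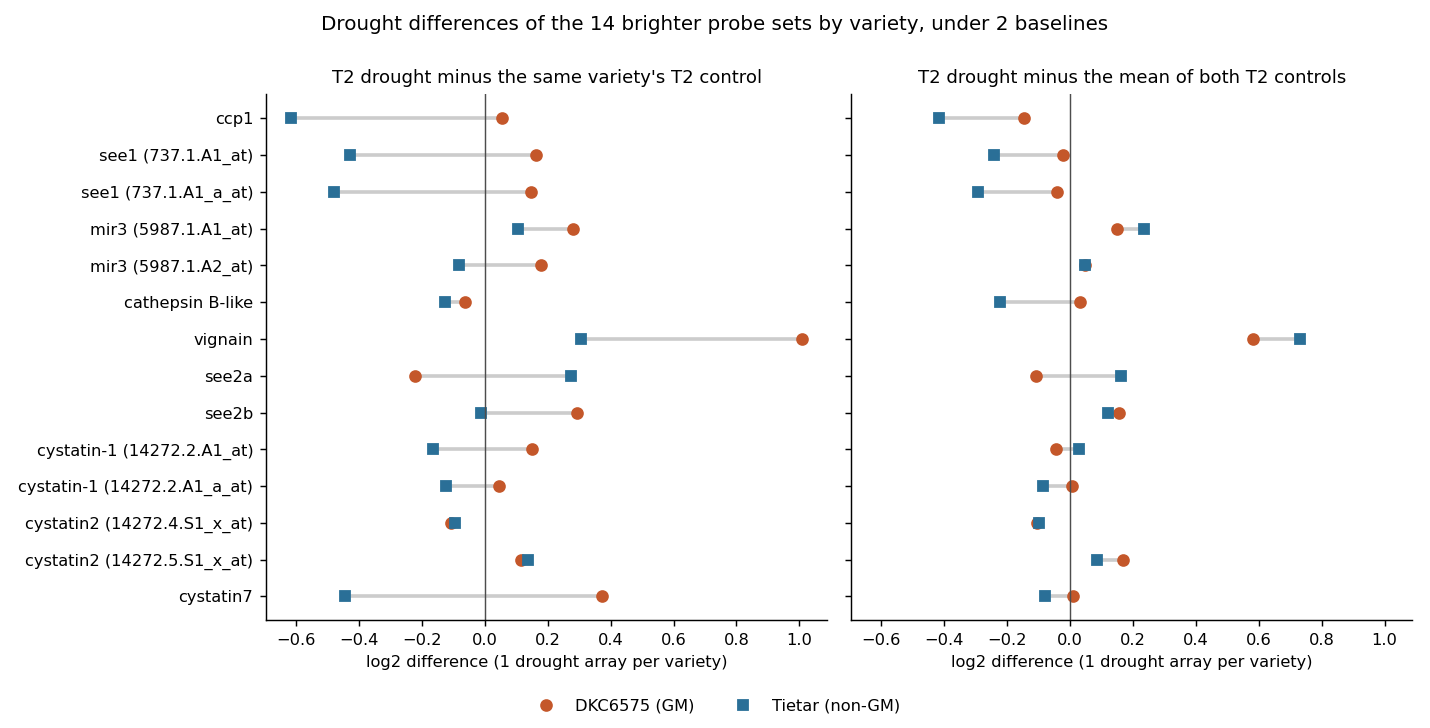
Log2 difference under drought (x axis) of the 14 brighter probe sets (y axis), with DKC6575 as circles and Tietar as squares, against the T2 control array of the same variety (left panel) and against the mean of both T2 control arrays (right panel). The opposite signs of see1 in the left panel, 0.16 and -0.43 for A1_at, become -0.02 and -0.24 in the right one. The shared baseline of the right panel removes the difference between the T2 control arrays by construction.

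Other genes of protein turnover were counted by lists of names, which were chosen with earlier results of these data known. Of 5 other proteases 3 rose and 0 fell between T1 and T2, against 6.23% and 3.37% of all probe sets. They were a proteolytic subunit of a Clp protease (0.76), serine carboxypeptidase 1 (0.53) and the thiol protease SEN102 (0.53), whose title did not meet the rule. Under drought 1 subtilisin-like protease passed the test (-0.80, limma adjusted p = 0.0484), against 0.482% of all probe sets that fell. Against the same shares, 3 of 5 other protease inhibitors rose and 0 fell between T1 and T2. They were a Bowman-Birk-like inhibitor (2.29), the wound-induced inhibitor WIP1 (1.47) and a trypsin inhibitor (1.497). WIP1 was also the only one of the 5 that passed the test under drought (-2.60, limma adjusted p = 0.0179), against 0.482% of all probe sets that fell. WIP1 is dim, however, with 16.9 in DKC6575 and 36.9 in Tietar at T2 drought, both under 64, against 120 and 192 at T2 control. The trypsin inhibitor (-0.86) and another dim one, a Bowman-Birk type trypsin inhibitor (-2.14), were lower as well without passing the test. The remaining inhibitors were higher, by 0.51 and 0.43, also without passing. The 5 other proteases, WIP1 and both trypsin inhibitors were matched by title only, through a selection on these same arrays. Their calls are no independent evidence.

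Of 7 probe sets of the ubiquitin-proteasome system and autophagy, only one for ubiquitin itself passed the test between the stages (0.79). Of all probe sets 6.23% rose there, and the ubiquitin probe set was matched by title only. None of the 7 passed it under drought, against 0.55% of all probe sets that rose and 0.482% that fell. Their drought differences ran between -0.73 and 1.09. Of 9 of chlorophyll breakdown and nitrogen recycling 1 rose between the stages, an asparagine synthetase (1.35), and 1 fell, the glutamine synthetase gln1 (-0.92). The shares over all probe sets were 6.23% and 3.37%. The same asparagine synthetase probe set was the only one of the 9 to pass the test under drought (-1.52, limma adjusted p = 0.0412). Of all probe sets 0.482% fell there.

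The members' increase at T2 coincided with other changes in the leaf samples. In bulk leaf RNA, fewer cells of a type and less RNA per cell cannot be told apart. Of 20 probe sets of pollen markers 14 rose and 0 fell between T1 and T2 control, against 6.23% and 3.37% of all probe sets. Part of the 20 were matched by title only, through a selection on these arrays, and their calls are no independent evidence. The summed signal of the 20 was 15911 to 18158 at T2 drought, 16949 to 18944 at T2 control and 14493 to 15436 at T1 control. Of the T1 sums, 12946 to 14226 came from the 2 brightest, GRMZM2G108780 and DBB11, which did not pass the test. The other 18 summed to 5079.6 to 6541 at T2 drought, 3981 to 6389 at T2 control and 1211 to 1547 at T1 control. Much of these sums came from 1 probe set titled after the pollen allergen Car b 1. It had 1989 and 2549 at T2 drought, 2268 and 1812 at T2 control, and 822 and 1067 at T1 control (DKC6575 before Tietar). Of the 20, 2 and 5 were under 64 on the T2 control arrays of DKC6575 and Tietar, against 15 on each T1 array. Exopolygalacturonase1, a pollen enzyme, had 1139 in DKC6575 and 576 in Tietar at T2 control, against 2.51 and 7.06 at T1 control. Of 18 probe sets of leaf photosynthesis 0 rose and 2 fell between T1 and T2 control, against the same shares of all probe sets, 6.23% and 3.37%. Of these 2, the probe set titled chlorophyll a-b binding protein 2 was matched by title only. The sum of the 18 was 138133 to 150968 at T2 drought, 177586 to 214729 at T2 control and 236949 to 252543 at T1 control. All 10 seed storage probe sets were under 64 on every array. The spiked control probe sets had median log2 signals of 10.44 to 10.45 at T2 drought, 10.63 to 10.66 at T2 control and 10.87 to 10.98 at T1 control, and the 3-prime to 5-prime log2 ratio of actin was 4.25 to 4.28, 4.57 to 4.67 and 4.65 to 4.66. The part of these differences in the members' values was not tested.

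Among 1411 brighter probe sets with a name, those whose 6 signals ran most like the mean of the 2 see1 probe sets were an unnamed gene with the identifier LOC542610 (Pearson's r = 0.99 across 6 arrays), a protein titled PCO069699 (0.99), the translation initiation factor gene eIF3A (0.98), and ribosomal proteins L24 and S14 of the large and small subunit (0.98 for both). These values describe 6 arrays that share stage and scaling. Of the members, cystatin-1 probe set A1_a_at (0.98) and cystatin7 (0.95) were nearest to see1, ccp1 had 0.59, and the lowest values were those of nepenthesin-2 (-0.13) and the OTU-like protease (-0.33).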

How the data were processed

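Leaf RNA of DKC6575 and Tietar at T1 control, T2 control and T2 drought was hybridized to 6 Affymetrix maize arrays. The methods name RMA for extraction and the Partek software for analysis. The intensities deposited by the authors are linear, some are under 1, and each array has a 2% trimmed mean of 500.191 to 500.265. That is the form of the Affymetrix MAS 5 signal and not of RMA, and how they were made could not be settled. The median signal was 118 to 141 per array, and the number of arrays limits the precision.

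Signals were converted to log2, and 113 of 17734 probe sets were left out as controls. Condition and variety were fitted together with limma 3.58.1 in R 4.3.3, with an intensity trend in the prior variance and Benjamini-Hochberg adjustment over 17621 probe sets at 0.05. The fit has 2 residual degrees of freedom, because the varieties serve as the replicates of a condition. Its p-values set a mean difference against an error. That error comes from how far the varieties differ in their responses and from the prior, which has 5.731 degrees of freedom. It holds no separate estimate of the spread among plants of a variety, and a difference between the varieties in response was not tested. Differences within 1 variety have no test and were counted at 2-fold. The procedure was tested on simulated data in which the noise depended on signal level alone, a simpler setting than the real arrays. With the trend it called 93 of 100 planted 2-fold and 100 of 100 planted 4-fold drought differences, all in brighter probe sets. It also called 20 unchanged probe sets. Without the trend it called 0 of each. The simulation does not show how the fit performs on the real arrays. Summaries used pandas 2.3.3, scipy 1.17.1 and numpy 2.4.6 under Python 3.11.15, and figures were drawn in matplotlib 3.10.9.

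Names came from the platform annotation (1452 probe sets with 1 symbol, 1377 of whose gene identifiers were in the B73 table) and from gene titles of the study (1990 probe sets). The members and lists were chosen with earlier results of these data known, and 7 false name matches were dropped from the lists after values were seen. Given with every signal are see1, see2, vignain, each member called or, if brighter, 2-fold different, and the brightest of each class. Alternatives were no trend, a filter at a mean log2 of 6, cyclic loess, median centring, a floor of 64, controls kept, no variety term, each array left out, 1 probe set per gene, names from the platform only, 1.5-fold and 3-fold thresholds and other baselines. The filter together with the floor and the mean of both T2 controls as a baseline were added after seeing the data.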

Additional observations from a re-analysis of the deposited data

Results flagged for a closer look

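The drought difference (T2 drought minus T2 control) had opposite signs in the 2 varieties for 4 brighter probe sets in which they lay at least 1.5-fold apart, and the difference between the varieties was not tested, since each rests on 1 array per condition. For ccp1 it was 0.05 in DKC6575 and -0.62 in Tietar, which are 0.67 apart on the log2 scale. For see1 it was 0.16 and -0.43 on probe set A1_at, 0.59 apart, and 0.15 and -0.48 on A1_a_at, 0.63 apart. For cystatin7 it was 0.37 in DKC6575 and -0.44 in Tietar, 0.82 apart. In all 4 the Tietar T2 control array had the highest signal of the 6 arrays. With the mean of both T2 control arrays as the baseline, the signs were opposite only for cystatin7, at 0.01 in DKC6575 and -0.08 in Tietar. That baseline removes the difference between the T2 control arrays by construction.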

How the results depend on the processing

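The varieties stood in for replicates, detection calls were not used here, and the smallest difference of a member that passed the test was 0.45 on the log2 scale. Of the 9 members called between T2 control and T1 control, 0 were called without the intensity trend or with a floor of 64, settings in which 0 of all 17621 probe sets were called in any comparison, 5 with median centring, and 5 when only names of the platform annotation were used, since that leaves fewer members. For T2 drought minus T1 control, with 11 calls, the counts were 0, 0, 6 and 6 under the same choices. With the filter at a mean log2 of 6, 10 members were called between the stages with the floor and 7 without the trend. For drought, with 0 calls, median centring gave 1, nepenthesin-2. Leaving out each array in turn gave 0 to 12 calls between the stages, 0 to 2 for drought, where both came without the DKC6575 T2 control array (ccp1 and nepenthesin-2, both lower), and 2 to 13 for T2 drought minus T1 control. Apart from the stated effect of fewer names, the causes were not tested. The labels give no replicate numbers, and the variety served as the block. Without it (no replicate block) the counts were 9, 0 and 10, the lost call being nepenthesin-2. No difference between the varieties was called in any setting, and none of the 22 differences named from the fit reversed its sign.

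Counts at 2-fold within a variety moved with the threshold. Under drought the 2 members in DKC6575 became 4 at 1.5-fold and 1 at 3-fold, and 1 with the filter, cyclic loess, median centring, the floor, the T2 control of Tietar, or the mean of both T2 controls as the baseline. The 2 in Tietar became 5 at 1.5-fold, 1 at 3-fold, 0 with the filter, 1 with the floor and 1 with the T2 control of DKC6575. Between the stages the 2 in DKC6575 became 7 at 1.5-fold, 1 at 3-fold, 1 with the filter, loess or the floor, and 5 with the T2 control of Tietar. The 3 in Tietar became 12 at 1.5-fold, 1 at 3-fold, and 1 with the T2 control of DKC6575 or the mean of both.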
